A study of Arabidopsis thaliana with 18 samples.

Results

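Transcripts of 6 small heat shock proteins that work in the cytosol or in peroxisomes were followed across Arabidopsis thaliana seedlings of 3 genotypes under 3 treatments. They were chosen by probe set and are 6 of the 22746 probe sets other than controls on an Affymetrix oligonucleotide array (ATH1). All 6 passed the filter on low values, which left 17379 probe sets for testing. Whole seedlings were 7 days old and grew at 22 °C, and RNA was taken from total seedling tissue. The genotypes were a line with a dominant-negative form of the heat shock factor HSFA6b (HSFA6b-RD, here RD), a line that overexpresses this factor (HSFA6b-OE, here OE) and the wild type Col-0 (WT). Each genotype was exposed to 37 °C for 1 h (heat shock), to 150 mM NaCl for 6 h, or kept at 22 °C as a control. The 2 stresses therefore differ in kind, strength and duration. There were 2 arrays in each of the 9 groups, described in the series as independent biological replicates. The promoter that drives each transgene, the number of independent lines behind RD and OE and their parent accession are not given in the sources used here. An array is named by genotype, treatment and replicate, so that RD heat 1 is replicate 1 of the heat-shocked RD line.

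Small heat shock proteins are chaperones that need no ATP. They bind unfolding proteins, keep them from clumping, and hand them to HSP70 and HSP101 for refolding. Plants make large families of them, sorted by sequence and by place in the cell, and most are nearly silent in unstressed leaves and roots until heat shock factors bind heat shock elements in their promoters. Class I and class II proteins sit in the cytosol and assemble into separate large oligomers.

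Probe sets are written here with the array's name before the identifier. HSP17.6A (ATH1.250351_at, AT5G12030) and HSP17.6II (ATH1.250296_at, AT5G12020) encode class II cytosolic proteins, and their loci neighbour each other in the gene table. HSP17.6C (ATH1.260978_at, AT1G53540) and HSP17.6B (ATH1.266294_at, AT2G29500) encode class I cytosolic proteins. HSP15.7 (ATH1.249575_at, AT5G37670) encodes a peroxisomal protein. The probe set ATH1.247691_at is described in the array files as heat shock protein 18. The tables used here give it no locus, so its class is not stated. The probe sets of such similar genes may share transcripts, which was not tested.

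Between 63.32% and 73.59% of probe sets were called Present (detected above background) on an array. The 6 transcripts were called Present in 105 of their 108 values. The exceptions all lay on RD control 1, where HSP17.6A (signal 23.3) and HSP17.6II (30.1) were called Absent and heat shock protein 18 (94.2) Marginal. RD control 2 was called Present for all 6. Array names in the file headers fall into 2 series, and 3 arrays belong to the second: WT heat 1, WT NaCl 1 and OE NaCl 1. These 3 groups had the lowest replicate correlations across genes, 0.917, 0.916 and 0.934, against 0.948 to 0.973 in the other 6 groups. No probe set was named for HSFA6B itself, so the genotype labels were not checked through it. Seedling tissue was checked through marker genes. The shoot marker RCA (rubisco activase) was Present on all 18 arrays, and the root hair expansins EXPA7 and EXPA18 were Present on 11 and 12 arrays. In whole seedlings, fewer cells that express a gene and less RNA per cell cannot be told apart.

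Levels below are MAS5 signals, a linear brightness scaled to a common mean on every array. They can be compared between arrays for 1 probe set, not between probe sets. The class II transcript HSP17.6A had heat shock signals of 36502 and 25761 in RD, 35497 and 32974 in OE, and 41186 and 39703 in WT. Its NaCl signals were 7755 and 3816 in RD, 17094 and 16275 in OE, and 17570 and 20580 in WT. Its control signals were 23.3 and 39.4 in RD, 245.6 and 363.7 in OE, and 51.5 and 156.7 in WT. Every heat shock array lay above every NaCl array, and every NaCl array above every control array. Within NaCl and within control the RD arrays were the lowest, and within control the OE arrays were the highest. In the order of group means, OE and RD heat shock arrays overlapped, and no other neighbours did.

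The other class II transcript, HSP17.6II, had heat shock signals of 28484 and 19531 in RD, 24536 and 22914 in OE, and 25751 and 30495 in WT. With NaCl it had 703.3 and 317.1 in RD, 5804 and 5991 in OE, and 3450 and 4183 in WT. Under control conditions it had 30.1 and 90.1 in RD, 215.7 and 338.2 in OE, and 50.1 and 123.4 in WT. The lower of the RD arrays under NaCl lay within the range of the unstressed OE arrays, far below the NaCl arrays of OE and WT. RD and WT overlapped under control conditions, and RD and OE under heat shock.

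For HSP17.6C of class I, the heat shock signals were 38015 and 24518 in RD, 35003 and 32228 in OE, and 38584 and 42278 in WT. The NaCl signals were 2141 and 1088 in RD, 7233 and 8956 in OE, and 6000 and 9037 in WT. The control signals were 64.1 and 329.0 in RD, 490.4 and 946.6 in OE, and 102.1 and 514.0 in WT. OE and WT overlapped under NaCl. Under control conditions, neighbouring genotypes overlapped because each pair of arrays was wide apart.

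HSP17.6B of class I had heat shock signals of 33900 and 23239 in RD, 33391 and 31157 in OE, and 35482 and 36432 in WT. Under NaCl it had 1334 and 599.6 in RD, 5132 and 5266 in OE, and 4096 and 4271 in WT. In unstressed seedlings it had 95.1 and 253.6 in RD, 441.4 and 820.8 in OE, and 162.8 and 371.9 in WT. RD under NaCl overlapped unstressed OE, and both NaCl arrays of OE and of WT lay above RD.

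The peroxisomal HSP15.7 had heat shock signals of 19822 and 14378 in RD, 23363 and 18623 in OE, and 20938 and 28956 in WT. Its NaCl signals were 181.1 and 161.5 in RD, 1840 and 1903 in OE, and 946.2 and 1289 in WT. Its control signals were 35.9 and 49.9 in RD, 111.4 and 188.7 in OE, and 46.5 and 129.6 in WT. The NaCl arrays of RD fell within the range of unstressed OE arrays and well below those of OE and WT under NaCl.

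Heat shock protein 18 had heat shock signals of 33690 and 24287 in RD, 32699 and 33118 in OE, and 37315 and 38453 in WT. Under NaCl it had 200.9 and 152.4 in RD, 1288 and 800.4 in OE, and 672.5 and 683.6 in WT. In control seedlings it had 94.2 and 119.3 in RD, 965.3 and 1101 in OE, and 133.2 and 159.3 in WT. Unstressed OE arrays lay above the NaCl arrays of WT and RD, an order found for none of the other 5 members. OE under NaCl overlapped unstressed OE.

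**Figure D1:**
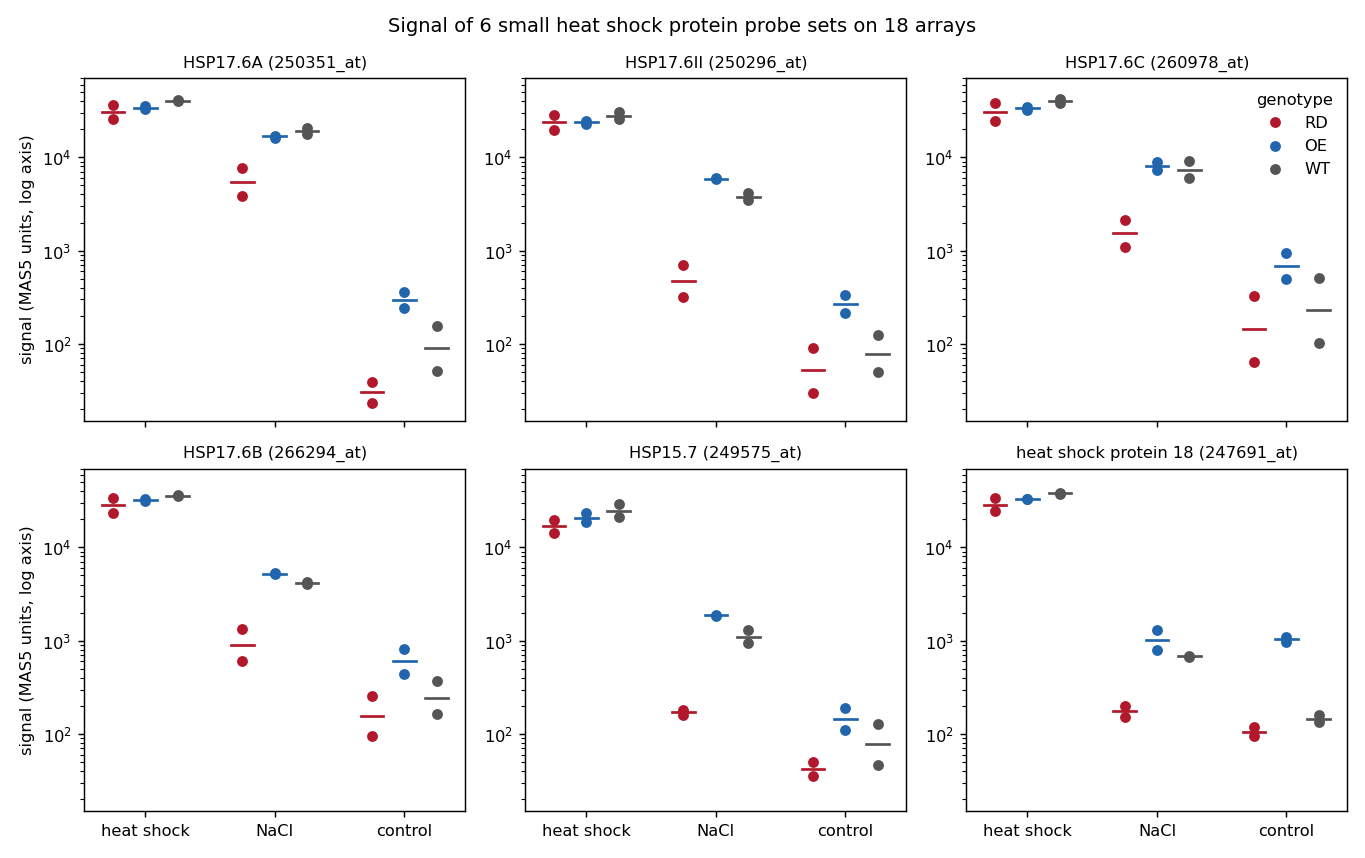
Signal (MAS5 units, log axis) of the 6 probe sets on each of the 18 arrays, by treatment (heat shock, NaCl, control) and genotype (RD, OE, WT), where points are single arrays and lines are means of the log2 signals. All heat shock arrays lie at 14378 or above, the RD arrays are lowest under NaCl in every panel, and for heat shock protein 18 the OE control arrays (965.3 and 1101) lie near the OE NaCl arrays.

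The replicates differed in a shared way. In control seedlings array 2 was above array 1 for 6 of 6 members in each genotype, by log2 differences of 0.34 to 2.36 in RD, 0.19 to 0.95 in OE and 0.26 to 2.33 in WT, while the median of all tested probe sets differed by 0.04 to 0.05. Among control arrays of the same replicate number, every member was lowest in RD and highest in OE. In RD, array 2 was below array 1 for 6 of 6 members with heat shock (-0.63 to -0.46) and with NaCl (-1.15 to -0.17). The differences from control moved with these arrays. For HSP17.6C in WT, the heat shock difference was 6.30 without WT control 1 and 8.63 without WT control 2, and its NaCl difference 3.84 and 6.17. In RD, its heat shock difference was 6.54 without RD control 1 and 8.90 without RD control 2, and its NaCl difference 2.21 and 4.57. Leaving out either control array also moved the differences of HSP17.6II and HSP17.6B in RD and WT, and those of HSP17.6A and HSP15.7 in WT, by more than 1.5-fold. None of these calls was lost in the alternatives.

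The first comparison asks how far each transcript moved with heat shock. All 6 rose in all 3 genotypes. The median log2 difference of heat shock from control was 8.36 in RD, 6.10 in OE and 8.17 in WT, against medians over all tested probe sets of -0.27, -0.29 and -0.29. The share of all probe sets called higher was 5.41% in RD, 6.44% in OE and 6.70% in WT.

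HSP17.6A had the largest difference in RD, 9.98 ± 0.45 (SE, adjusted p = 3.83e-09), with a range of 9.36 to 10.36 over the alternatives. HSP17.6A was called Absent on 1 of the 2 control arrays behind that difference. In OE its difference was 6.84 ± 0.45 (adjusted p = 1.63e-07) and in WT 8.81 ± 0.45 (adjusted p = 1.15e-08). HSP17.6II rose by 8.82 ± 0.51 in RD, 6.46 ± 0.51 in OE and 8.48 ± 0.51 in WT. The class I pair had smaller values, with 7.72 ± 0.73 in RD, 5.62 ± 0.73 in OE and 7.46 ± 0.73 in WT for HSP17.6C. HSP17.6B rose by 7.50 ± 0.49 in RD, 5.74 ± 0.49 in OE and 7.19 ± 0.49 in WT. For these 3 members the highest adjusted p in any genotype was that of HSP17.6C in OE, 0.000115.

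The peroxisomal HSP15.7 rose by 8.64 ± 0.41 in RD, 7.17 ± 0.41 in OE and 8.31 ± 0.41 in WT. Its OE difference, about 144-fold, was the largest in that line. Heat shock protein 18 rose by 8.08 ± 0.26 in RD and 8.02 ± 0.26 in WT, about 270-fold and 260-fold. In OE it rose by 5.00 ± 0.26, about 31.9-fold, from control signals that were already raised. All 18 calls held in each of the 13 alternatives run for each, and within the first array series the WT differences ran from 7.21 (HSP17.6B) to 8.79 (HSP17.6A). The summed signal of the root hair markers EXPA7 and EXPA18 was 211.7 to 236.0 in heat-shocked OE, against 515.3 to 532.8 in unstressed OE. Neither marker passed there (EXPA7 -1.29 ± 0.68, adjusted p = 0.208, and EXPA18 -1.19 ± 0.41, 0.0588), and their part in the OE differences was not tested.

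NaCl raised most of these transcripts too, by more unequal amounts. In RD 6 of 6 rose, in OE 5 of 6 and in WT 6 of 6, against 12.0%, 11.5% and 12.0% of all tested probe sets called higher. The median difference from control was 2.85 in RD, 3.63 in OE and 4.55 in WT. HSP17.6A again stood highest, with 7.49 ± 0.45 in RD, 5.80 ± 0.45 in OE and 7.73 ± 0.45 in WT. The RD value rests on 2 control arrays, and HSP17.6A was called Absent on 1 of them. In WT the adjusted p was 1.16e-07, and the difference ran from 6.92 to 8.53 over the alternatives.

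Its neighbour and class II partner HSP17.6II rose by 3.18 ± 0.51 in RD, 4.45 ± 0.51 in OE and 5.59 ± 0.51 in WT. The RD value ran from 2.39 to 3.97 over the alternatives, and 1 of its 2 control arrays was called Absent. HSP17.6C of class I rose by 3.39 ± 0.73 in RD, 3.56 ± 0.73 in OE and 5.01 ± 0.73 in WT, and HSP17.6B by 2.53 ± 0.49, 3.11 ± 0.49 and 4.09 ± 0.49 in the same order. HSP15.7 of the peroxisome rose by 2.01 ± 0.41 in RD (about 4.04-fold), 3.69 ± 0.41 in OE and 3.83 ± 0.41 in WT. The highest adjusted p among these calls was 0.00344, for HSP17.6C in RD.

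The smallest NaCl difference in each genotype was that of heat shock protein 18. It rose by 2.22 ± 0.26 in WT, about 4.65-fold (adjusted p = 5.15e-05). In OE the difference was -0.02 ± 0.26 (adjusted p = 0.959), with a 95% interval of -0.58 to 0.53, and OE NaCl and OE control arrays overlapped. In RD the difference of 0.72 ± 0.26 passed with an adjusted p of 0.0465. That call was lost in 8 of 13 alternatives, among them leaving out RD NaCl 1 (0.52, adjusted p = 0.241), RD control 1 (0.55, 0.231), RD control 2 (0.89, 0.0686) or RD NaCl 2 (0.92, 0.0581).

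Within the first array series alone, the WT differences under NaCl ran from 2.23 for heat shock protein 18 to 7.84 for HSP17.6A, and the OE differences from -0.37 to 5.77 for the same genes. Markers of root hairs moved with NaCl as well. The summed signal of EXPA7 and EXPA18 was 46.5 to 101.5 in RD, 89.4 to 116.8 in OE and 33.8 to 104.4 in WT under NaCl, against 301.3 to 377.6, 515.3 to 532.8 and 307.4 to 475.0 in control seedlings of the same genotypes. Under NaCl the signals were low, 5.0 to 63.0 for EXPA7 and 27.7 to 69.4 for EXPA18, so the size of the log2 falls is uncertain. In WT EXPA7 fell by 3.64 and EXPA18 by 2.27 on the log2 scale (adjusted p = 0.00156 and 0.00132), while RCA differed by 0.03 ± 0.31 (adjusted p = 0.955). In RD both markers were called lower. In OE EXPA18 was called lower (-2.94 ± 0.41) and EXPA7 was not (-1.67 ± 0.68, adjusted p = 0.0845). The part of tissue composition in the NaCl results was not tested.

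**Figure D2:**
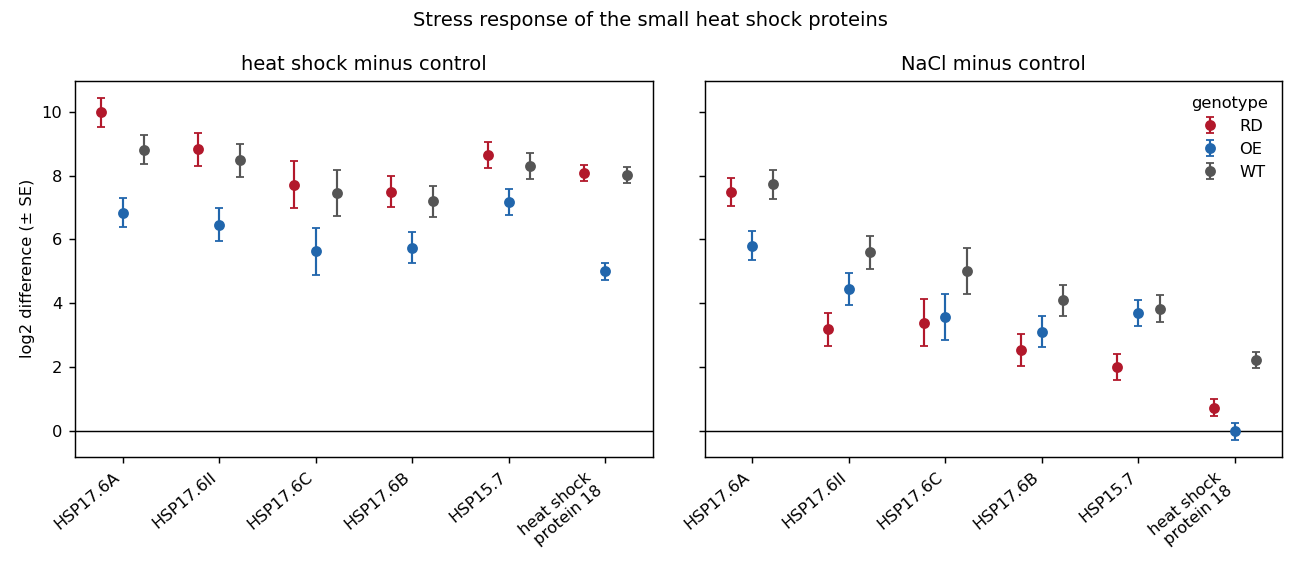
Log2 difference from control (± SE of the fit, 2 arrays a group) for heat shock (left) and NaCl (right), by member, with genotypes in the order RD, OE, WT. With heat shock all values lie between 5.00 and 9.98, and with NaCl they spread from -0.02 (heat shock protein 18 in OE) to 7.73 (HSP17.6A in WT).

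Setting heat shock directly against NaCl shows how near each stress brought a transcript to the same level, without using the control arrays. Heat shock was the higher in all 6 members and all 3 genotypes, with no overlap of arrays. The same separation was found for 6079 of 17379 tested probe sets in RD, 5093 in OE and 4284 in WT. In RD 6 of 6 were called higher with heat shock, in OE 5 of 6 and in WT 5 of 6, against 16.3%, 13.9% and 11.7% of all tested probe sets. HSP17.6A differed least, and its heat shock signals were 76.8% to 81.9% of the highest signal on the array. Those of HSP17.6C (73.3% to 82.4%), heat shock protein 18 (70.8% to 79.1%) and HSP17.6B (67.4% to 76.6%) were near this. Those of HSP17.6II (48.9% to 62.1%) and HSP15.7 (39.7% to 56.4%) were lower. Whether signals this high narrowed the difference of any member was not tested. The NaCl level of HSP17.6A was 17.7% of its heat shock level in RD, 48.8% in OE and 47.0% in WT, as ratios of geometric means. In WT the log2 difference of 1.09 ± 0.45 did not pass (adjusted p = 0.0869, 95% interval 0.12 to 2.06), nor did the 1.04 ± 0.45 in OE (adjusted p = 0.0930, interval 0.07 to 2.01), except in OE with the spread of the compared groups alone (adjusted p = 0.0256). In RD the 2.49 ± 0.45 did pass (adjusted p = 0.000991).

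At the other end stood heat shock protein 18, whose NaCl level was 0.612% of its heat shock level in RD, 3.09% in OE and 1.79% in WT. Its log2 differences were 7.35 ± 0.26 in RD, 5.02 ± 0.26 in OE and 5.80 ± 0.26 in WT. The peroxisomal HSP15.7 came next in each genotype, with 6.63 ± 0.41 in RD, 3.48 ± 0.41 in OE and 4.48 ± 0.41 in WT. Its NaCl level was 1.01%, 8.97% and 4.49% of its heat shock level in that order of genotypes.

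HSP17.6II differed by 5.64 ± 0.51 in RD, 2.01 ± 0.51 in OE and 2.88 ± 0.51 in WT, so that its NaCl level was 2.0% of the heat shock level in RD, 24.9% in OE and 13.6% in WT. HSP17.6B differed by 4.97 ± 0.49 in RD, 2.63 ± 0.49 in OE and 3.10 ± 0.49 in WT. HSP17.6C differed by 4.32 ± 0.73 in RD, 2.06 ± 0.73 in OE (adjusted p = 0.0419) and 2.46 ± 0.73 in WT (adjusted p = 0.0223). The HSP17.6C call was lost in OE in 9 of 13 alternatives and in WT in 6 of 13, including leaving out any single array of the compared groups (OE heat 1 0.153, OE heat 2 0.121, OE NaCl 1 0.134, OE NaCl 2 0.106; WT heat 1 0.0626, WT heat 2 0.0822, WT NaCl 1 0.0860, WT NaCl 2 0.0509, all adjusted p). Without OE heat 1 the HSP17.6II call in OE was lost as well (1.96, adjusted p = 0.0531), leaving 3 of 6. Whether the heat shock to NaCl difference itself differed between genotypes was not tested.

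**Figure D3:**
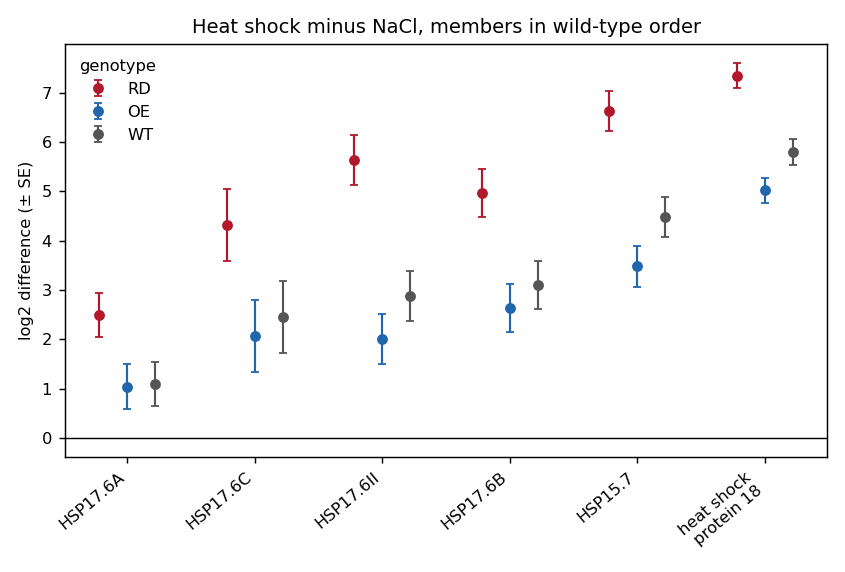
Log2 difference of heat shock minus NaCl (± SE of the fit, 2 arrays a group) for each member, ordered by its value in WT, with genotypes in the order RD, OE, WT. HSP17.6A has the smallest values (2.49, 1.04 and 1.09) and heat shock protein 18 the largest (7.35, 5.02 and 5.80).

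The lines were then compared within each treatment, to ask whether altered HSFA6b moved these transcripts. In unstressed seedlings all 6 group means were higher in OE than in WT, against a median difference of 0 over all tested probe sets. The members varied together within control arrays (r of 0.739 to 0.99), so these are not separate agreements. Heat shock protein 18 was called higher in OE than in WT, by 2.82 ± 0.26 or about 7.08-fold (adjusted p = 0.000307). It was 1 of 3 probe sets called higher in that comparison, 0.0173% of those tested, and the call held in 13 of 13 alternatives (highest adjusted p 0.0494). The other 5 had differences of 0.90 (HSP15.7) to 1.78 (HSP17.6II), with unadjusted p of 0.00184 to 0.0483 and adjusted p of 1. Over the alternatives the HSP15.7 difference ran from 0.16 to 1.64 and that of HSP17.6C from 0.41 to 2.74. Both OE arrays lay above both WT arrays for 4 of 6 members, which 14.8% of all tested probe sets did, and HSP17.6C and HSP15.7 overlapped. Within each replicate number OE was above WT for these members as well, and a paired comparison of control arrays was not made.

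For RD against WT in unstressed seedlings, 0 of 6 were called, against 0.0460% of all probe sets. The 6 differences ran from -1.57 (HSP17.6A, 95% interval -2.54 to -0.60) to -0.46 (heat shock protein 18, interval -1.01 to 0.10), with an unadjusted p under 0.05 for 2 of 6. Against OE, RD had lower signals on both arrays for 6 of 6 members, as did 20.0% of all tested probe sets. Of these, 2 of 6 were called lower, against 0.213% of all. They were HSP17.6A, which fell by 3.30 ± 0.45 on the log2 scale (adjusted p = 0.00608), and heat shock protein 18, by 3.28 ± 0.26 (adjusted p = 6.99e-05). The HSP17.6A call was lost without RD control 1, the array on which it was Absent (-2.92, adjusted p = 0.0808), and without OE control 2 (-3.02, 0.127), and also when the spread was taken from the compared groups alone (0.0885). Without RD control 2, HSP17.6II was called too (-3.17, adjusted p = 0.0386), but the only RD control array was then the one on which it was Absent. The other 4 had differences of -2.37 to -1.78 and adjusted p of 0.101 to 0.523.

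The same comparisons were made under NaCl. Signals in RD were below those in WT on both arrays for 6 of 6 members, as for 15.6% of all tested probe sets, by log2 differences of -3.01 to -1.81. Called lower were 3 of 6, against 0.409% of all probe sets. HSP17.6II fell by 3.01 ± 0.51 on the log2 scale, to about 0.124 of WT (adjusted p = 0.0185). HSP15.7 fell by 2.69 ± 0.41, to about 0.155 of WT (adjusted p = 0.0101), and heat shock protein 18 by 1.95 ± 0.26, to about 0.258 (adjusted p = 0.00409). HSP17.6A (-1.81 ± 0.45, adjusted p = 0.160), HSP17.6B (-2.23 ± 0.49, 0.0835) and HSP17.6C (-2.27 ± 0.73, 0.408) did not pass.

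Within the first array series, which leaves out WT NaCl 1, the same 3 were called, with -3.15 for HSP17.6II (adjusted p = 0.0477), -2.91 for HSP15.7 (0.0188) and -1.97 for heat shock protein 18 (0.00553). Only heat shock protein 18 stayed called without WT NaCl 2, where HSP17.6II had -2.87 (adjusted p = 0.0965) and HSP15.7 -2.47 (0.0673). The same held without RD NaCl 2, with -2.43 (0.136) and -2.61 (0.0650). With the spread taken from the RD and WT NaCl arrays alone, 0 of 6 were called, with adjusted p of 0.496 for HSP15.7, 0.540 for HSP17.6II and 0.550 for heat shock protein 18, and 0 of all probe sets passed in that fit.

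Set against OE under NaCl, RD was lower on both arrays for 6 of 6, as for 22.0% of all tested probe sets, and 4 of 6 were called lower, against 0.748% of all. The values were -3.64 ± 0.51 for HSP17.6II (adjusted p = 0.00358), -3.45 ± 0.41 for HSP15.7 (0.00105), -2.54 ± 0.49 for HSP17.6B (0.0277) and -2.54 ± 0.26 for heat shock protein 18 (0.000382). HSP17.6A (-1.62 ± 0.45, adjusted p = 0.167) and HSP17.6C (-2.40 ± 0.73, 0.218) did not pass. The HSP17.6B call was lost in 6 of 13 alternatives, among them without OE NaCl 1 (adjusted p = 0.137), OE NaCl 2 (0.151) or RD NaCl 2 (-1.96, 0.203) and within the first array series (0.112). With the spread of the compared groups alone, HSP15.7 was the 1 member called. For OE against WT under NaCl, 0 of 6 were called, and limma called 0 of all probe sets (0%), with 296 at an unadjusted p under 0.05. The 6 differences ran from -0.19 (HSP17.6A, 95% interval -1.16 to 0.78) to 0.76 (HSP15.7, interval -0.11 to 1.63), and 1 of 6, heat shock protein 18, had an unadjusted p under 0.05 (0.58, interval 0.03 to 1.14).

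After heat shock no member was called between genotypes. On these arrays the members ranked 10 to 133 of 22746 probe sets, at 39.7% to 82.4% of the array's highest signal. Whether differences are compressed at such high signals was not tested, so the absence of calls is not a measure of equal transcript levels. For RD against WT 0 of 6 passed, against 0.207% of all probe sets, with differences of -0.54 (HSP15.7, 95% interval -1.42 to 0.33) to -0.25 (HSP17.6II, interval -1.34 to 0.84). For OE against WT 0 of 6 passed, against 0.115%, with differences of -0.27 (HSP17.6C, interval -1.83 to 1.29) to -0.16 (HSP17.6B, interval -1.21 to 0.90). For RD against OE 0 of 6 passed, against 0.846%, with differences of -0.31 to -0.01, and the arrays of all 6 members overlapped. RD lay below WT on both arrays for 5 of 6 members (all but HSP17.6II), as 21.9% of all probe sets did, and OE lay below WT for 5 of 6 (all but HSP15.7), as 20.6% did. No member had an unadjusted p under 0.05 in these 3 comparisons. The array's highest signal was 47559 and 31438 in RD, 43615 and 41864 in OE, and 52674 and 51329 in WT. Its part in these differences was not tested. Over all probe sets, the count called was 36 for RD against WT and 20 for OE against WT, and leaving out 1 array gave 13 to 454 and 1 to 662. WT heat 1 belongs to the second array series, and all RD and OE heat shock arrays to the first. With the array series as a block, the counts were 521 for RD against WT and 112 for OE against WT, with no member among them. The root hair markers differed here too. The summed signal of EXPA7 and EXPA18 after heat shock was 299.4 to 313.0 in RD, 211.7 to 236.0 in OE and 441.4 to 592.2 in WT. Neither was called between genotypes after heat shock, and their part in these results was not tested.

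**Figure D4:**
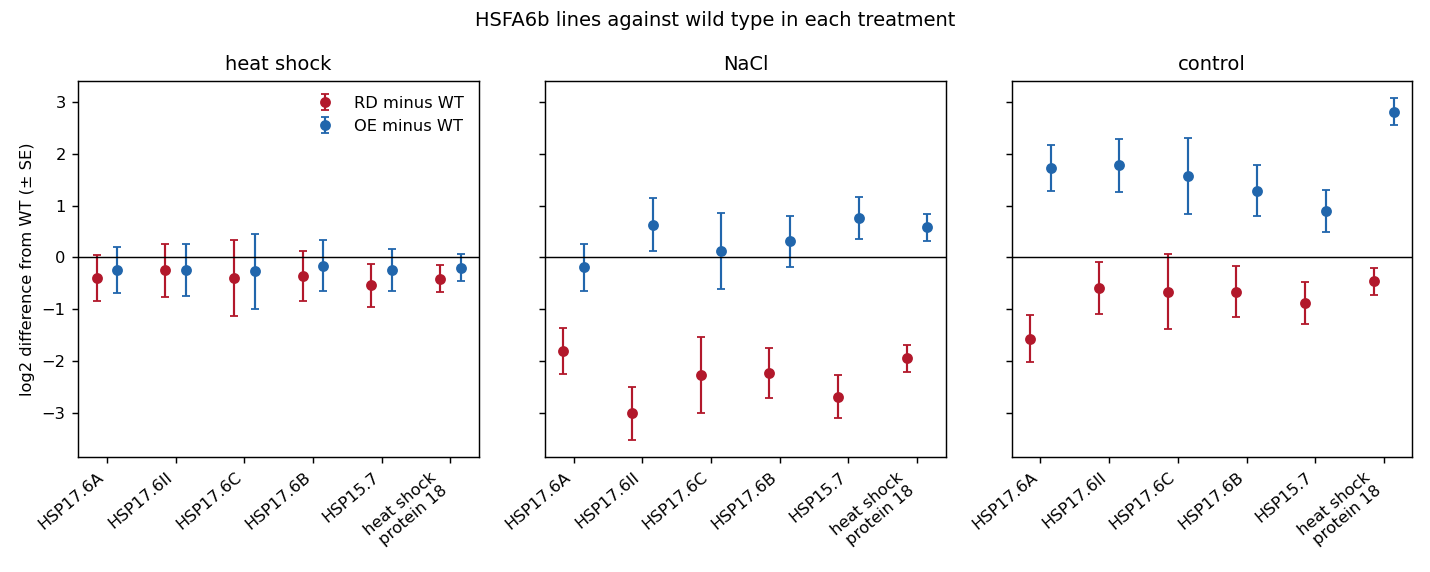
Log2 difference from WT (± SE of the fit, 2 arrays a group) of the RD and OE lines, by member, under heat shock (left), NaCl (middle) and control (right). Under heat shock all values lie between -0.54 and -0.16, under NaCl RD lies between -3.01 and -1.81, and under control conditions OE lies between 0.90 and 2.82.

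The difference of the stress response between a line and WT was tested as an interaction. For heat shock in OE, 1 of 6 responses was called smaller than in WT, against 0.0115% of all probe sets. It was that of heat shock protein 18, which fell short by 3.03 ± 0.36 on the log2 scale (adjusted p = 0.0174) and was 1 of 2 probe sets called. Its heat shock signals in OE and WT differed by -0.20 (95% interval -0.76 to 0.35), while its control signals differed by 2.82. On the heat shock arrays its signals were 70.8% to 79.1% of the array's highest signal. Whether the heat shock difference was compressed there was not tested. The call was lost when OE heat 1 (adjusted p = 0.183), OE heat 2 (0.0575), OE control 1 (0.110), OE control 2 (0.212), WT control 1 (0.143) or WT control 2 (0.0871) was left out, with values of -3.16 to -2.90. The other 5 interactions were -2.02 to -1.14, with adjusted p of 0.748 to 0.857.

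For NaCl in OE, 0 of 6 responses differed from WT by the test, as for 0 (0%) of all probe sets by limma, with 191 at an unadjusted p under 0.05. The values ran from -2.24 (heat shock protein 18, 95% interval -3.02 to -1.46) to -0.14 (HSP15.7, interval -1.37 to 1.09), with an unadjusted p under 0.05 for 2 of 6. For heat shock in RD 0 of 6 were called, against 0.00575% of all, with values of 0.05 to 1.17 and an unadjusted p under 0.05 for 0 of 6. For NaCl in RD 0 of 6 were called, against 0.0173%, with values of -2.41 (HSP17.6II, interval -3.96 to -0.87) to -0.24 (HSP17.6A, interval -1.61 to 1.13) and an unadjusted p under 0.05 for 4 of 6. The lower NaCl level in RD was thus called for 3 members as a level, while no member's NaCl response was called as different from that of WT.

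The 6 transcripts varied together. Within the 6 heat shock arrays, the Pearson r of log2 signals of the 15 pairs of members was 0.823 to 0.981, within the 6 NaCl arrays 0.906 to 0.995, and within the 6 control arrays 0.739 to 0.990. Over all 18 arrays the pairs had r of 0.744 (HSP17.6A with heat shock protein 18) to 0.994. These are descriptions over arrays that share genotypes and scaling, with no background of other probe sets drawn for them. The highest signal on a heat shock array ran from 31438 (RD heat 2) to 52674 (WT heat 1), and HSP17.6A stayed at 76.8% to 81.9% of it. The part of the arrays' highest signal in the heat shock correlations was not tested. The mean profile of the 6 over 18 arrays was best followed by HSP17.6B (r = 0.998) and least by heat shock protein 18 (0.922). Each member is part of that profile, so a high r is partly built in. Among 17373 other tested probe sets, 165 had an r above 0.9 with that profile. The 10 highest with exactly 1 gene were AT2G19310 (0.992), HSP23.6-MITO (0.988), HSF4 (0.983), AT1G21550 (0.982), AT5G25450 (0.981), AT5G51440 (0.979), AT3G14200 (0.977), Hop2 (0.977), AT1G66080 (0.976) and AT3G17110 (0.974).

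Small heat shock proteins outside the 6 give the setting. Of 12 other loci listed, 10 were matched to 9 tested probe sets, 1 of them shared by 2 genes. With heat shock in WT 7 of 9 rose, against 6.70% of all tested probe sets. The largest were AT1G52560 (10.56 ± 0.91), the plastid HSP21 (10.42 ± 1.28) and the shared probe set ATH1.262911_s_at (10.37 ± 0.34). AT4G21870 (-0.05 ± 0.58, adjusted p = 0.962) and AT5G47600 (-0.76 ± 1.22, 0.707) did not pass. With NaCl in WT 6 of 9 rose, against 12.0% of all tested probe sets. They were led by ATH1.262911_s_at (8.64 ± 0.34), the mitochondrial HSP23.6-MITO (7.06 ± 0.65) and AT1G54050 (6.16 ± 0.24). HSP21 (3.50 ± 1.28, adjusted p = 0.0530), AT4G21870 (-0.89 ± 0.58, 0.266) and AT5G47600 (-2.28 ± 1.22, 0.175) did not pass. Under NaCl, 3 of 9 were called lower in RD than in WT, against 0.409% of all tested probe sets. They were AT1G52560 (-4.84 ± 0.91), HSP23.6-MITO (-3.73 ± 0.65) and AT5G51440 (-1.46 ± 0.27). The list's median was -1.46, against -2.25 for the 6 transcripts and -0.02 for all probe sets.

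Most of the listed chaperones and partner proteins linked to refolding rose with the stresses too. Of 12 loci listed, 9 were matched and tested, and 8 of 9 rose with heat shock and with NaCl in each of the 3 genotypes. Of all tested probe sets, 5.41% to 6.70% were called higher with heat shock and 11.5% to 12.0% with NaCl. In WT the largest heat shock differences were those of the disaggregase HSP101 (9.84 ± 0.50), the HSP70 partner Fes1A (7.57 ± 0.27) and HSP90.1 (7.46 ± 0.26), while Hop1 (-0.39 ± 0.30, adjusted p = 0.387) did not pass. Under NaCl 0 of 9 were called between RD and WT, against 0.437% of all tested probe sets. With so small a share, 0 of 9 does not set this list apart. Its median was -0.81, and the largest were Hop3 (-1.33 ± 0.39, adjusted p = 0.306), HSP90.1 (-1.04 ± 0.26, 0.151) and HSP101 (-0.97 ± 0.50, 0.888). Whether the small heat shock proteins differ from these chaperones in that respect was not tested.

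Of 21 heat shock factor loci, 3 were matched. HSF4, a factor of the B class, rose by 6.32 ± 0.29 with heat shock and by 2.47 ± 0.29 with NaCl in WT. HSF1 (-0.48 ± 0.38 with heat shock and 0.72 ± 0.38 with NaCl) and HSF3 (0.00 ± 0.28 and 0.61 ± 0.28) did not pass. Between RD and OE, HSF4 was called lower in RD in unstressed seedlings (-1.62 ± 0.29, adjusted p = 0.0406) and under NaCl (-1.38 ± 0.29, 0.0445). Of all tested probe sets, 0.213% and 0.748% were called lower in these comparisons. Between RD and WT under NaCl 0 of 3 were called, against 0.437% of all. None of 8 listed peroxisome genes was matched to a probe set, so the peroxisomal HSP15.7 was not set against them.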

How the data were processed

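Per the submitters' processing notes, the authors' signals are MAS5 intensity values, 1 for each probe set and array; no version is named in the sources used here. The deposited files also hold detection p-values with Present, Marginal or Absent calls, the highest p-value of a Present call being 0.0474. The deposited intensity values are linear, with a mean after trimming 2% at each end of 500 to 500.1 on every array. A value table of the series held the same signals. No genome build is named, so no coordinates are given.

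Signals under 0.1 were set to 0.1 before log2. A probe set was tested if some group had 2 Present arrays, which left 17379 of 22746. One limma model (version 3.58.1, R 4.3.3, lmFit and eBayes with trend = TRUE) held all 18 arrays in 9 groups, and its residual degrees of freedom were 9, its prior ones 4.76. For each of 22 contrasts, Benjamini-Hochberg adjustment ran over all tested probe sets with a threshold of 0.05, and the fit was tested on simulated data. SE and 95% intervals come from that fit, SD was not used, and the number of arrays, which have no counting depth, limits precision. Names came from the platform annotation, updated through gene numbers, or from array descriptions. Python 3.11.15, pandas 2.3.3, numpy 2.4.6 and matplotlib 3.10.9 were used.

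The 6 members, the lists and the tests were chosen with earlier results of these data known. All members were named, and from each list the 3 largest differences plus members that did not pass where these were 3 or fewer. Listed seed markers (0 of 3 loci) were not matched. The shoot list had 1 of 4 loci matched and the root list 2 of 4. Alternatives were quantile normalization, a floor of 16, log2(signal + 16), no filter, array series as a block or the first series alone, the replicate number as a block, no intensity trend, the spread of the compared groups alone, and each array left out. Protein and promoter sequences planned for description were not used here.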

Additional observations from a re-analysis of the deposited data

Results flagged for a closer look

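The heat shock response of heat shock protein 18 differed between OE and WT by a test of the difference itself, an interaction of -3.03 ± 0.36 on the log2 scale (adjusted p = 0.0174). Its response was 5.00 ± 0.26 in OE and 8.02 ± 0.26 in WT. The interaction was called in 11 of 17 alternatives. Both OE arrays had lower heat shock signals (32699 and 33118) than both WT arrays (37315 and 38453), as for 20.6% of all tested probe sets. That heat shock difference of -0.20 was not called (limma, adjusted p = 0.781). On the heat shock arrays these signals were 70.8% to 79.1% of the array's highest signal, and whether the difference was compressed there was not tested. The control signals were 965.3 and 1101 in OE, against 133.2 and 159.3 in WT, a log2 difference of 2.82 that was called. Groups of 2 arrays are too small for a check of single arrays that stand apart.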

How the results depend on the processing

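Leaving out 1 array gave 3 to 4 members called for OE heat shock against NaCl, 1 to 3 for unstressed RD against OE, 1 to 3 for RD against WT under NaCl, and 0 to 1 for the OE heat shock response against WT. With the spread of the compared groups alone, unstressed RD against OE gave 1, RD against WT under NaCl 0 and RD against OE under NaCl 1. Deviations of same-numbered arrays of different groups correlated over all tested probe sets at -0.08 to 0.63 (median 0.06, 36 pairs). The numbers were not taken as pairs in the main fit. This median mixes treatments and does not exclude a shift shared by same-numbered control arrays. Pairing the control arrays alone was not tested, and a block common to all treatments cannot decide it. With the replicate number as a block, all 22 counts of members called were as in the fit without it: 6 of 6 for heat shock in each genotype and 3 for RD against WT under NaCl. The NaCl difference of heat shock protein 18 in OE, uncalled throughout, ran from -0.37 to 0.32 when 1 array was left out. In 8 contrasts without a call, 116 alternative fits called no member (lowest adjusted p 0.0688). Quantile normalization moved the median of all probe sets for heat shock against control to -0.10 in RD, -0.13 in OE and -0.13 in WT, from -0.27, -0.29 and -0.29, and the share of calls that were higher to 55.0%, 51.4% and 49.3%, from 36.5%, 34.4% and 33.6%. Over all probe sets, RD against WT under NaCl gave 0 to 186 over the alternatives other than leaving out arrays, against 76, and RD against OE under NaCl 7 to 185, against 132. The causes were not tested. The 2 arrays a group limit the precision, most of all for RD control 1, where 2 members were called Absent.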
